A study of Mus musculus with 20 samples.

Results

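A set of 9 genes of glycogen metabolism were examined in mouse liver, namely Gys2, Pygl, Gbe1, Ugp2, Gyg, Ppp1r3b, Ppp1r3c, Ppp1r3g and Phka2. They were found by gene symbol, and these 9 of the 45306 genes in the expression table were all present and all passed the filter on low counts that left 15616 genes for testing. Glycogen is the branched glucose polymer in which hepatocytes store glucose after meals and from which they release it between meals. Its synthesis starts on the self-glucosylating protein glycogenin, uses UDP-glucose, and is carried out by glycogen synthase and a branching enzyme, whereas glycogen phosphorylase breaks the chains down. Phosphorylase kinase activates the phosphorylase, and protein phosphatase 1, which targeting subunits bring to the glycogen particle, opposes it and activates the synthase.

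Liver RNA of 20 C57BL/6 mice was sequenced with 1 library per mouse and 5 mice per group. Control mice (replicates 1 to 5) were wild type and not exposed to cold, and CE mice (replicates 6 to 10) were wild type and were placed at 4 °C for 3 h a day over 3 weeks. Sirt2-/- mice (replicates 11 to 15) and Sirt2-/-/CE mice (replicates 16 to 20) carried a CRISPR-Cas9 deletion aimed at exons 5 to 7 of Sirt2, without and with the same cold exposure, so that the gene was targeted in the whole body and not in the liver alone. All groups were 5 weeks old at the start and were held under a 12 h light phase; the labels give neither the time of day nor the feeding state at which livers were taken. The replicate numbers do not pair mice across groups, and nothing in the labels says whether littermates or cages were shared. The p-values treat the mice as independent, which could not be checked.

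Total counts per mouse ranged from 35499796 to 53917339. Sirt2 had 20.1 to 22.9 FPKM in Control, 21.5 to 25.9 in CE, 9.32 to 15.3 in Sirt2-/- and 10.1 to 13.1 in Sirt2-/-/CE mice, where FPKM are fragments scaled to gene length and library depth. The hepatocyte markers Alb, Apoa1, Ttr, Tat, Cps1 and Hnf4a summed to between 37642 and 75675 FPKM, whereas 5 skeletal muscle markers summed to at most 0.129 FPKM, 4 adipocyte markers to at most 0.169 and 4 pancreas markers to at most 0.618. In a bulk sample, fewer cells of a type and less RNA per cell cannot be told apart. A clock score, in which the mean log2 level of Arntl, Npas2 and Clock is taken from that of Dbp, Tef, Per3, Nr1d2 and Ciart, differed widely between mice. It averaged 2.73 ± 0.82 in Control (SD, n = 5), -0.24 ± 2.57 in CE, -1.54 ± 4.21 in Sirt2-/- and -0.95 ± 2.18 in Sirt2-/-/CE mice. Of the genes in the score, Npas2 was near the floor, with 0 FPKM in 9 of 20 mice and a median of 0.0135 FPKM.

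Promoters were available for 7 of the 9 genes, and those of Ppp1r3c, Ppp1r3g and Phka2 are shown because they belong to the member with an E-box before its start, the member with the widest spread and the member with the lowest p-values. The sequences are from RefSeq on GRCm38.p6 and hold 250 bases before and 50 bases after the transcription start. Capitals mark matches to any of the motifs searched on both strands, which were the E-box CACGTG, the D-box TTATGTAA, the cAMP response element TGACGTCA and its short form TGACG, the FOXO motif GTAAACA, the GC box GGGCGG and the TATA box TATAAA. The Ppp1r3c window is chr19:36736555-36736854 on the reverse strand, the Ppp1r3g window chr13:35967656-35967955 on the forward strand, and the Phka2 window chrX:160501912-160502211 on the forward strand. The Ppp1r3g window lies inside the gene as placed by GENCODE (35958839 to 35970388), so its start is not the outermost GENCODE start.
Ppp1r3c: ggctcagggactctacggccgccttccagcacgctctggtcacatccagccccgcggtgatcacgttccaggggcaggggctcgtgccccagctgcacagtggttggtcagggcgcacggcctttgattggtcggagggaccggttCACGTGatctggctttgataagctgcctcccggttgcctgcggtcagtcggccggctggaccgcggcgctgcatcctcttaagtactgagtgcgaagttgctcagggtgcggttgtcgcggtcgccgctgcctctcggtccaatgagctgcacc
Ppp1r3g: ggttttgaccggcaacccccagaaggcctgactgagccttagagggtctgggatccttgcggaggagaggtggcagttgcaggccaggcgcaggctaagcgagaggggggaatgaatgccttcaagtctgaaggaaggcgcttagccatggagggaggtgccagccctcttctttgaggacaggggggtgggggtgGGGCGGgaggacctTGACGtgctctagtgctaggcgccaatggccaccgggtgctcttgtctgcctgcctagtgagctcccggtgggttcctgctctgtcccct
Phka2: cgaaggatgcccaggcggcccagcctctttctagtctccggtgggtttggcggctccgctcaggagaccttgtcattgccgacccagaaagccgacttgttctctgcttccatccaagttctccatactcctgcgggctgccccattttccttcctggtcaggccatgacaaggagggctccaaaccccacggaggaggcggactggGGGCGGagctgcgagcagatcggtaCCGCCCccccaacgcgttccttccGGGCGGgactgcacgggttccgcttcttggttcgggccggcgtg
In Ppp1r3c the only match was the E-box, the motif that the CLOCK and BMAL1 factors recognise, which began 104 bases before the start. Gyg was the other member with an E-box, and 7.15% of the 32851 promoters in the reference held one. Ppp1r3g held a GC box and the short form of the cAMP response element, which began 40 bases before the start and occurred in 20.8% of all promoters. Phka2 held 3 GC boxes, a motif found in 35.7% of promoters. None of the 7 members' windows held the D-box, the full cAMP response element, the FOXO or the TATA motif in these letters.

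Across all 20 mice, the mean levels of the members spanned from 113 FPKM for Ugp2 and 112 for Pygl to 2.56 for Gyg. Between them lay Gys2 with 79.3, Ppp1r3b with 61.3, Gbe1 with 35.3, Ppp1r3c with 18.8, Ppp1r3g with 5.78 and Phka2 with 3.96 FPKM. The ranges of every pair of neighbours in this order overlapped over the mice. The liver forms of the enzymes stood far above the forms of other tissues, as Gys1, the muscle-type glycogen synthase, had 0.234 to 1.06 FPKM and Gys2 28.5 to 161. Muscle phosphorylase Pygm had at most 0.465 FPKM, brain phosphorylase Pygb 0.398 to 1.96, and Pygl 62.7 to 150.4. Phka2, the liver regulatory subunit of phosphorylase kinase, had 2.31 to 6.49 FPKM, whereas the muscle subunit Phka1 had 0.509 to 1.64. Ppp1r3a, the muscle targeting subunit of protein phosphatase 1, was listed at 0 in 17 of 20 mice.

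**Figure D1:**
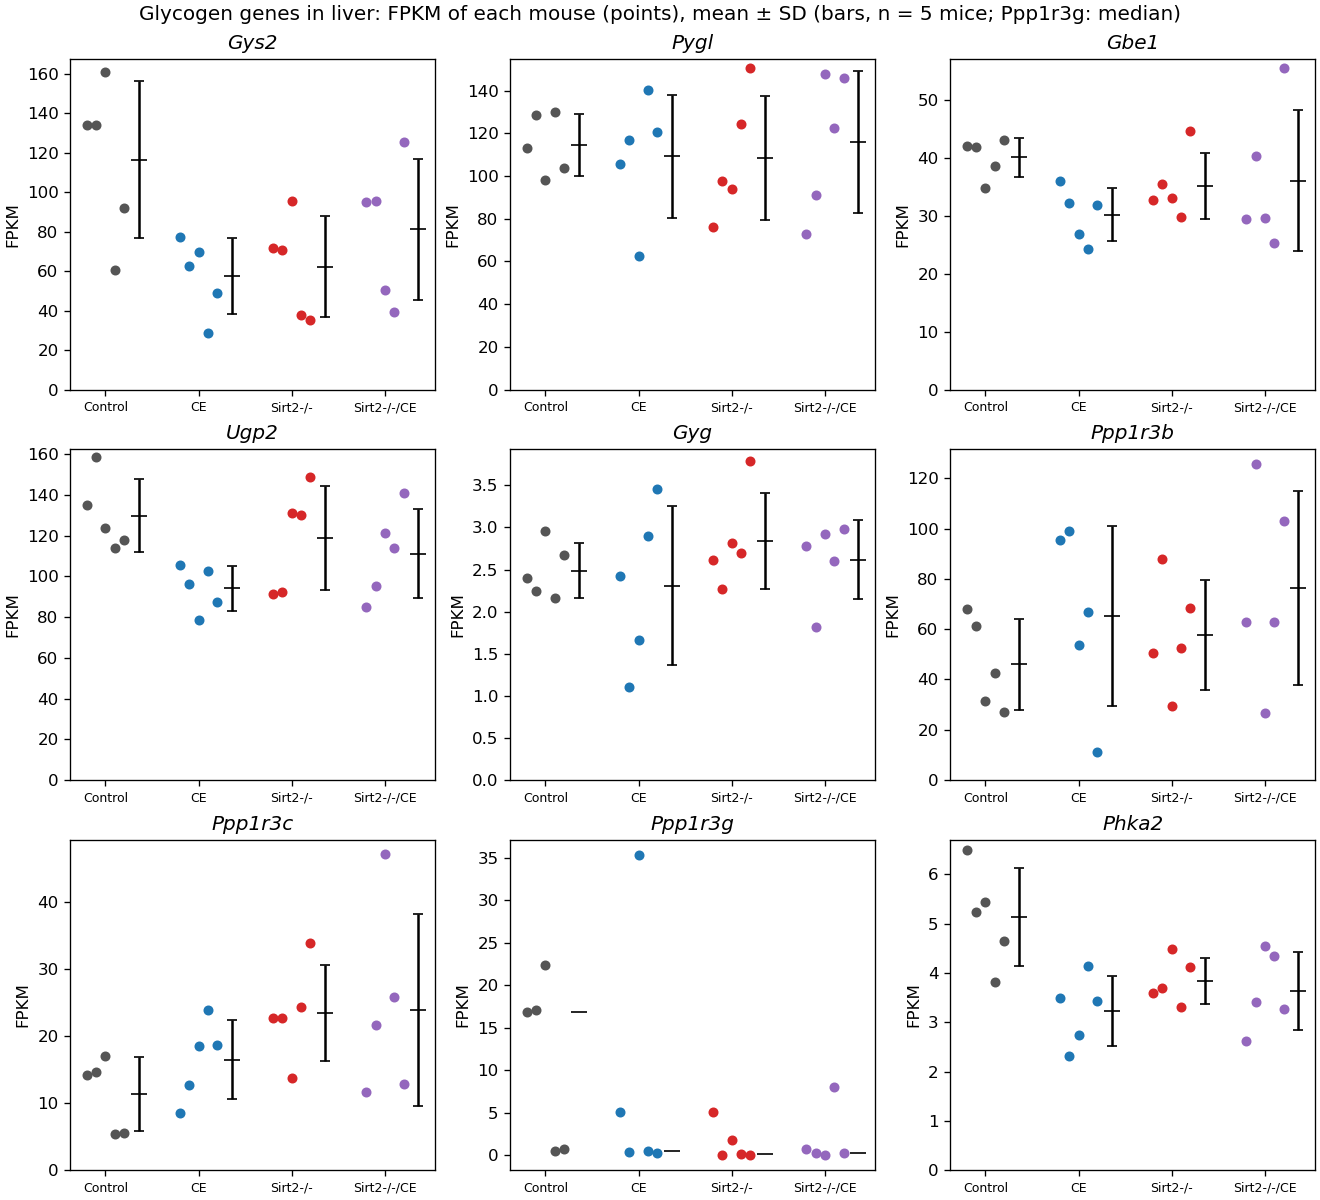
FPKM (y axis) of each of the 9 glycogen genes in the 4 groups (x axis), with 1 point per mouse and the mean ± SD of 5 mice as a bar, or the median alone for Ppp1r3g. All Gys2 values of CE mice lie below the Control median of 134 FPKM, and Ugp2 is the gene whose CE and Control points do not overlap.

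No member passed an adjusted p of 0.05 by edgeR's quasi-likelihood test in any of the comparisons. In CE against Control this was 0 of 9, where 0.0064% of all tested genes were called, and in Sirt2-/- against Control 0 of 9, where 0.89% were called. In Sirt2-/-/CE against Sirt2-/- and against CE it was again 0 of 9, beside 0.0% and 0.0128% of all genes. At an unadjusted p under 0.05, 4 of 9 members were lower in CE than in Control, against 10.7% of all tested genes in either direction, and 3 of 9 differed between Sirt2-/- and Control, against 14.9%. For Sirt2-/-/CE, 0 of 9 did so against Sirt2-/- (7.25% of all genes) and 0 of 9 against CE (6.09%). The count of 4 in CE was 2 with the clock score in the fit (beside 1689 of 15616 genes). The count of 3 in Sirt2-/- was 7 by limma voom (beside 3601 of 15616 genes). The median log2 fold change of the members was -0.33 in CE and -0.29 in Sirt2-/- mice relative to Control, and 0.13 and 0.15 in Sirt2-/-/CE relative to Sirt2-/- and CE. The CE median is the value of Ppp1r3g itself, and it ran from -0.39 to -0.11 as single mice were left out, with the values nearest 0 without CE replicate 7 (-0.11), Control replicate 3 (-0.11) or 2 (-0.13), CE replicate 9 (-0.17) or 6 (-0.17) or Control replicate 1 (-0.19). The Sirt2-/- median was -0.15 under scaling by library size alone, where the median of all genes was 0.16. With single mice left out, the medians in Sirt2-/-/CE ran from 0.060 to 0.25 against Sirt2-/- and from 0.043 to 0.21 against CE. The former was -0.0069 by limma trend on log2(FPKM + 1) and 0.039 under scaling by library size alone. The genotype averaged over both treatments and cold averaged over both genotypes gave 0 calls among the members (0.186% and 0.0% of all genes) and 3 and 2 members at an unadjusted p under 0.05 (13.8% and 9.48% of all genes). Without CE replicate 8 the latter counts were 1 and 1, beside 2000 and 1497 of 15883 tested genes. Groups did not overlap in FPKM for 1 member in CE against Control (2.62% of all genes) and for 0 members in Sirt2-/- against Control (4.69%), in Sirt2-/-/CE against Sirt2-/- (0.929%) and in Sirt2-/-/CE against CE (1.56%). The medians of the log2 fold change over all tested genes in these 4 pairs lay between -0.01 and 0.02. The first pair of comparisons share the Control mice, and the values for each are therefore given side by side without a test of their likeness. The interaction of genotype and cold was at an unadjusted p under 0.05 for 3 of 9 members and called for 0, beside 8.34% and 0.0% of all tested genes.

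**Figure D2:**
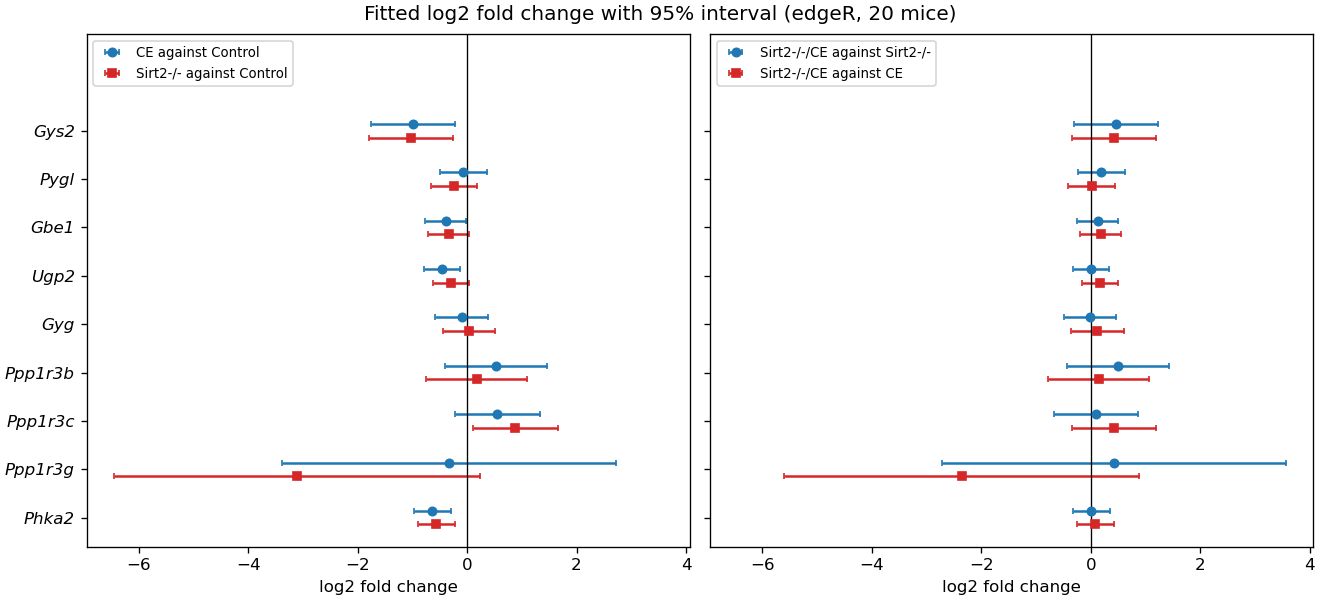
Log2 fold change (x axis) of the 9 genes (y axis) fitted by edgeR over 20 mice, with 95% intervals; circles and squares are the comparisons named in each panel. On the left, the intervals of Gys2 and Phka2 lie below 0 in both comparisons with Control, and on the right all 18 intervals cross 0.

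Gys2 (ENSMUSG00000030244), liver glycogen synthase, is on the reverse strand of chromosome 6 (142422613 to 142473109) of GRCm38. Its FPKM were 134, 134, 161, 60.7 and 92.1 in Control replicates 1 to 5 and 77.2, 62.7, 69.6, 28.5 and 49.1 in CE replicates 6 to 10. They were 71.6, 70.8, 95.6, 37.9 and 35.4 in Sirt2-/- replicates 11 to 15 and 94.9, 95.6, 50.3, 39.2 and 125.5 in Sirt2-/-/CE replicates 16 to 20. Control replicates 1, 2 and 3 lay above all others, while Control replicate 4 lay within the range of every other group, so that no pair of groups was apart. The mean was 116 ± 39.7 FPKM in Control (SD, n = 5), 57.4 ± 19.2 in CE, 62.3 ± 25.4 in Sirt2-/- and 81.1 ± 35.6 in Sirt2-/-/CE. The log2 fold change against Control was -0.99 in CE (SE 0.37, unadjusted p = 0.0144, edgeR adjusted p = 0.323) and -1.03 in Sirt2-/- (SE 0.37, unadjusted p = 0.0112, edgeR adjusted p = 0.18). With knockout, the log2 fold change of cold was 0.47 (95% interval -0.30 to 1.23, edgeR adjusted p = 0.851). That value was -0.15 by limma voom with sample quality weights, and it ran from 0.24 without Sirt2-/-/CE replicate 20 to 0.70 without Sirt2-/- replicate 13, with 0.29 without Sirt2-/- replicate 15. The interaction, which compares the effect of cold in knockout and wild-type livers, was 1.45 on the log2 scale (SE 0.52, unadjusted p = 0.0111, edgeR adjusted p = 0.465).

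The 4 mice with the lowest Gys2, namely CE replicate 9, Sirt2-/- replicates 14 and 15 and Sirt2-/-/CE replicate 19, were also the 4 with the lowest clock scores. Those scores were -4.52, -5.72, -6.48 and -4.69, against at least -0.81 in each of the other mice. When the clock score was added to the fit, the log2 fold change of Gys2 was -0.44 in CE and -0.26 in Sirt2-/- against Control, with edgeR adjusted p = 0.53 and 0.951. The interaction was 0.82 with the score and 0.94 by limma voom without it. Over all 15616 tested genes, the edgeR fit with the score called 2 in CE and 0 in Sirt2-/- against Control. Without the score, edgeR called 1 and 139.

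**Figure D3:**
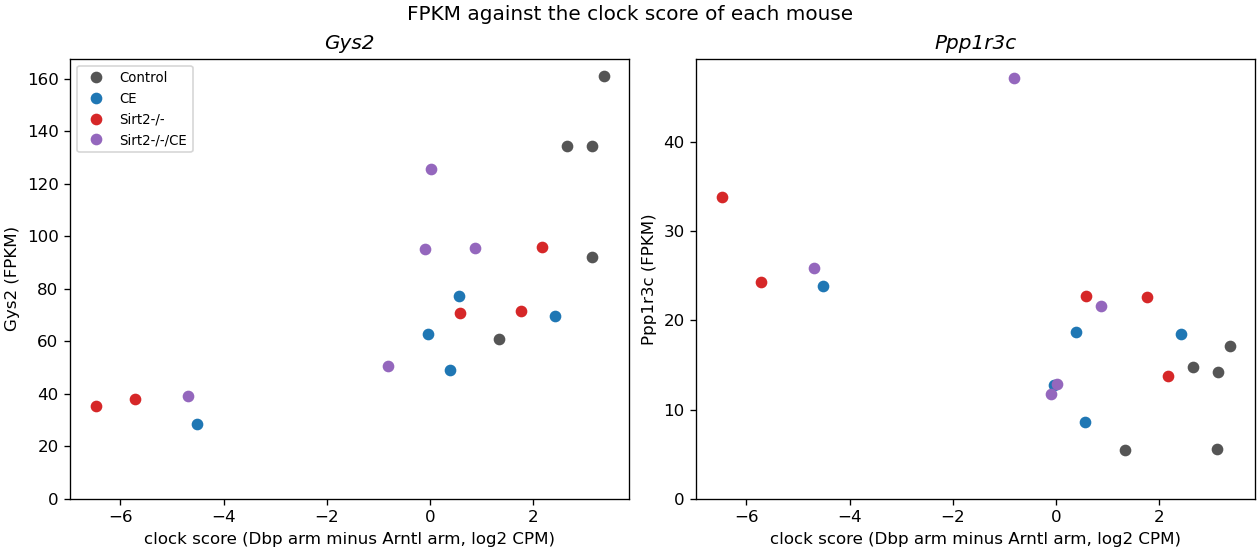
FPKM of Gys2 (left) and Ppp1r3c (right) on the y axes against the clock score of each mouse on the x axes, with 1 point per mouse coloured by group. The 4 mice with a score of -4.52 or less have the 4 lowest Gys2 levels, 28.5 to 39.2 FPKM, and Ppp1r3c levels of 23.9 to 33.9 FPKM.

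Pygl (ENSMUSG00000021069), liver glycogen phosphorylase, is on the reverse strand of chromosome 12 (70190811 to 70231488). Its FPKM were 113, 129, 98.1, 130.0 and 104 in Control replicates and 105, 117, 62.7, 140.2 and 121 in CE replicates. They were 76.3, 97.5, 93.8, 125 and 150.4 in Sirt2-/- replicates and 72.7, 91.3, 148, 122 and 146 in Sirt2-/-/CE replicates. The groups overlapped throughout, and the group means lay between 109 and 116 FPKM. The log2 fold change was -0.07 in CE (95% interval -0.49 to 0.36) and -0.24 in Sirt2-/- mice (95% interval -0.67 to 0.19), with edgeR adjusted p = 0.958 and 0.632. With the clock score in the fit, the Sirt2-/- value was -0.59 (edgeR adjusted p = 0.415), the lowest over the 30 alternatives (other settings and fits without single mice), which ran up to -0.087, and the CE value ran from -0.31 to 0.056.

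FPKM are scaled to gene length, so the levels of synthase and phosphorylase messenger RNA can be set against each other. The lengths used in that scaling are not given, and the ratio depends on them. The ratio of Gys2 to Pygl FPKM was 1.05 ± 0.428 in Control (SD, n = 5), 0.598 ± 0.345 in CE, 0.645 ± 0.36 in Sirt2-/- and 0.775 ± 0.436 in Sirt2-/-/CE. Gys2 was the higher of the pair in 3 of 5 Control mice, 1 CE mouse, 1 Sirt2-/- mouse and 2 Sirt2-/-/CE mice. The ratio ran from 0.203 in CE replicate 9 to 1.64 in Control replicate 3, and all 4 groups overlapped.

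**Figure D4:**
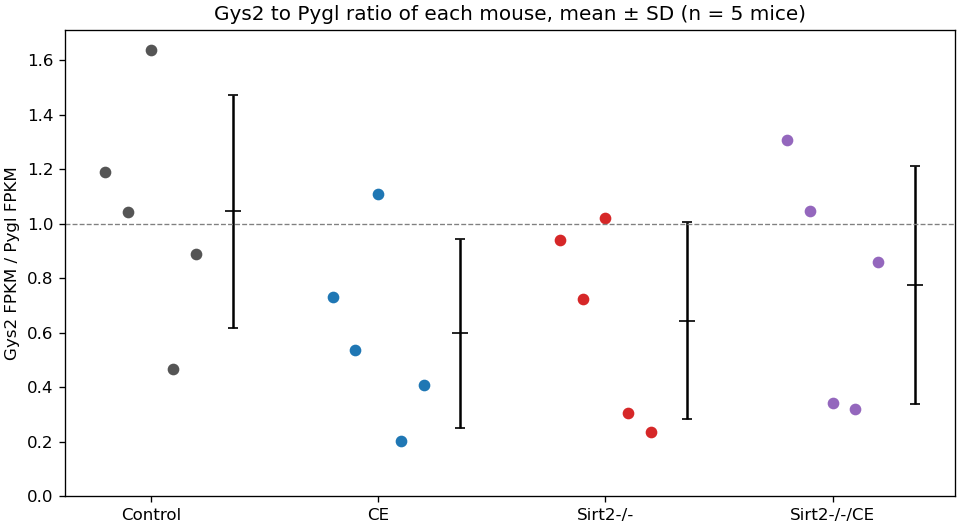
Ratio of Gys2 to Pygl FPKM (y axis) in each mouse by group (x axis), with the mean ± SD of 5 mice as a bar and a dashed line at equal levels. Control mice average 1.05 and the other groups 0.598 to 0.775, with overlapping points.

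Ugp2, Gyg and Gbe1 supply the substrate, the primer and the branches of the polymer, in that order. Ugp2 (ENSMUSG00000001891), the pyrophosphorylase that makes UDP-glucose, is on the reverse strand of chromosome 11 (21321138 to 21371201), and 78 of its 3069 exonic bases overlap Gm12043 on the opposite strand, whose reads cannot be told apart if strand was not used in counting. Its FPKM were 135, 158, 123, 114 and 118 in Control mice and 105, 96.1, 78.6, 102 and 87.6 in CE mice. Sirt2-/- mice had 91.4, 92.1, 131, 130.0 and 149, and Sirt2-/-/CE mice 85.0, 95.3, 121, 114 and 141. Every CE mouse lay below every Control mouse, as was the case for 1.26% of all tested genes, and the knockout groups overlapped with both. The log2 fold change in CE was -0.46 (SE 0.16, unadjusted p = 0.0079, edgeR adjusted p = 0.279), and in Sirt2-/- it was -0.29 (SE 0.16, edgeR adjusted p = 0.401). Over the 30 alternatives the Sirt2-/- value ran from -0.53 by limma voom to -0.15 by limma trend on log2(FPKM + 1). By limma voom with sample quality weights, both passed the threshold, with adjusted p = 0.0373 for CE and 0.0214 for Sirt2-/-, in fits that called 3.46% and 5.8% of all tested genes. In FPKM, the Sirt2-/- median stood at 105% of the Control median, and the Sirt2-/- mean at 91.5% of the Control mean. The interaction was 0.46 (unadjusted p = 0.0498, edgeR adjusted p = 0.598), or 0.69 by limma voom.

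Gbe1 (ENSMUSG00000022707), the glycogen branching enzyme, is on the forward strand of chromosome 16 (70313949 to 70569716). Control mice had 42.0, 41.8, 34.8, 38.6 and 43.1 FPKM, and CE mice had 35.9, 32.2, 26.8, 24.3 and 31.8. Sirt2-/- mice had 32.6, 35.5, 33.0, 29.7 and 44.6, and Sirt2-/-/CE mice 29.4, 40.3, 29.7, 25.3 and 55.4. In all, 4 of 5 CE mice lay below every Control mouse, whereas the highest Gbe1 level of all stood in Sirt2-/-/CE replicate 20. Gbe1 had a log2 fold change of -0.39 for CE (SE 0.18, unadjusted p = 0.0415, edgeR adjusted p = 0.443) and -0.34 in Sirt2-/- (SE 0.18, edgeR adjusted p = 0.389), with an interaction of 0.52 (edgeR adjusted p = 0.606) that was 0.29 without Sirt2-/-/CE replicate 20 and 0.28 by limma voom. The Sirt2-/- value ran from -0.41 to -0.19 over the 30 alternatives, and with the clock score in the fit it was -0.21 (edgeR adjusted p = 0.951). That fit called 0 of all tested genes in this comparison.

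Gyg (ENSMUSG00000019528), glycogenin, is on the reverse strand of chromosome 3 (20122084 to 20155317) and had the lowest mean level of the members. Its FPKM ran from 2.16 to 2.96 in Control, from 1.10 to 3.45 in CE, from 2.27 to 3.79 in Sirt2-/- and from 1.82 to 2.98 in Sirt2-/-/CE mice, with 86 to 249 reads per mouse. All groups overlapped, and the log2 fold change against Control was -0.10 in CE (95% interval -0.58 to 0.38) and 0.04 in Sirt2-/- (95% interval -0.45 to 0.52). Over the 30 alternatives these values ran from -0.28 to 0.050 and from -0.12 to 0.19.

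Phka2 (ENSMUSG00000031295), whose product regulates phosphorylase kinase, is on the forward strand of chromosome X (160502166 to 160598878), and 115 of its 6068 exonic bases overlap the antisense gene Gm15243. It had 6.49, 5.24, 5.44, 3.82 and 4.65 FPKM in Control mice and 3.50, 2.31, 2.73, 4.15 and 3.44 in CE mice. Sirt2-/- mice had 3.60, 3.69, 4.48, 3.31 and 4.12, and Sirt2-/-/CE mice 2.63, 3.40, 4.54, 4.35 and 3.26. All CE and all Sirt2-/- mice lay below the Control median, and only Control replicate 4 came down into their ranges. Phka2 had the lowest p-values of the members, namely a log2 fold change for CE of -0.64 (SE 0.16, unadjusted p = 0.0008, edgeR adjusted p = 0.183) and -0.56 in Sirt2-/- (SE 0.16, unadjusted p = 0.0023, edgeR adjusted p = 0.0888). DESeq2 gave adjusted p = 0.0309 and 0.0278, limma voom with sample quality weights gave 0.0117 and 0.0136, and leaving out Sirt2-/- replicate 13 gave an edgeR adjusted p of 0.0458 for the knockout. Over all tested genes DESeq2 called 1.08% in CE and 3.89% in Sirt2-/- against Control, voom 3.46% and 5.8%, and the fit without that mouse 2.36%. In cold-exposed knockouts the log2 fold change was 0.01 against Sirt2-/- and 0.08 against CE, and the interaction was 0.64 (SE 0.23, unadjusted p = 0.0102, edgeR adjusted p = 0.457). With the clock score in the fit, the values against Control were -0.64 in CE and -0.57 in Sirt2-/-, and the Sirt2-/- value ran from -0.65 to -0.33 over the 30 alternatives.

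Among the targeting subunits of protein phosphatase 1, Ppp1r3b (ENSMUSG00000046794), the main liver form, is on the forward strand of chromosome 8 (35375739 to 35388139). Its FPKM were 68.0, 61.4, 31.2, 42.6 and 27.1 in Control mice and 95.6, 99.2, 53.5, 66.9 and 11.3 in CE mice. They were 50.4, 87.8, 29.5, 52.4 and 68.3 in Sirt2-/- mice and 62.9, 126, 26.7, 63.0 and 103 in Sirt2-/-/CE mice. The lowest of the 20 mice was CE replicate 10, the other CE mice had at least 53.5 FPKM, and all groups overlapped. The log2 fold change of cold averaged over both genotypes was 0.51 (95% interval -0.14 to 1.17, edgeR adjusted p = 0.635), and against Control it was 0.53 in CE and 0.18 in Sirt2-/-. Limma voom gave -0.040 for the average and 0.055 for CE, and the CE value ran from 0.31 without CE replicate 7 to 0.80 without CE replicate 10. Over the 30 alternatives the Sirt2-/- value ran from -0.026 to 0.33.

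Ppp1r3c (ENSMUSG00000067279), another glycogen-targeting subunit and the holder of the E-box above, is on the reverse strand of chromosome 19 (36731731 to 36736653). Its FPKM were 14.2, 14.7, 17.1, 5.42 and 5.60 in Control mice and 8.59, 12.8, 18.5, 23.9 and 18.7 in CE mice. They were 22.7, 22.8, 13.8, 24.3 and 33.9 in Sirt2-/- mice and 11.8, 21.7, 47.3, 25.9 and 12.9 in Sirt2-/-/CE mice. In all, 4 of 5 Sirt2-/- mice lay above every Control mouse. In Sirt2-/- mice the log2 fold change was 0.88 (SE 0.37, unadjusted p = 0.0282, edgeR adjusted p = 0.264), and averaged over both treatments the genotype gave 0.65 (unadjusted p = 0.0221, edgeR adjusted p = 0.278). Values in CE relative to Control were 0.55 (95% interval -0.22 to 1.33; 0.35 to 0.77 over the 30 alternatives), and with the clock score in the fit the Sirt2-/- value was 0.60 (edgeR adjusted p = 0.894). That fit called 0 of all tested genes in Sirt2-/- against Control.

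Ppp1r3g (ENSMUSG00000050423), a targeting subunit known to vary with the feeding state, is on the forward strand of chromosome 13 (35958839 to 35970388) and varied most between mice. Its FPKM were 16.8, 17.2, 22.4, 0.452 and 0.767 in Control mice and 5.13, 0.349, 35.4, 0.478 and 0.268 in CE mice. They were 5.05, 0.0701, 1.83, 0.109 and 0.0443 in Sirt2-/- mice and 0.753, 0.228, 0.0, 8.09 and 0.234 in Sirt2-/-/CE mice. Mice of a group lay far apart, with 59 to 2344 reads in Control and 5 to 515 reads in Sirt2-/- mice, and the group medians were 16.8, 0.478, 0.109 and 0.234 FPKM. Sirt2-/-/CE replicate 18 had 0 reads, which allows up to 3 reads or 0.0768 CPM of that library's total, a limit for counting error only. Within groups the spread of Ppp1r3g, 2.93 on the log2 scale (SD of log2 CPM, counts scaled by TMM), exceeded that of 99.8% of the tested genes, whose median was 0.43. For CE the log2 fold change was -0.33 (95% interval -3.39 to 2.73, edgeR adjusted p = 0.973) and -3.11 in Sirt2-/- (SE 1.6, unadjusted p = 0.0661, edgeR adjusted p = 0.374). The genotype averaged over both treatments gave -2.74 (unadjusted p = 0.0233, edgeR adjusted p = 0.281). These fold changes moved strongly with single mice, and the genotype average ran from -3.99 to -1.47 as each mouse was left out in turn. Over all 28 alternatives the genotype average ran from -3.99 to -1.08. Over 29 alternatives the CE value ran from -2.89 to 0.15 and the Sirt2-/- value from -4.55 to -1.97.

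**Figure D5:**
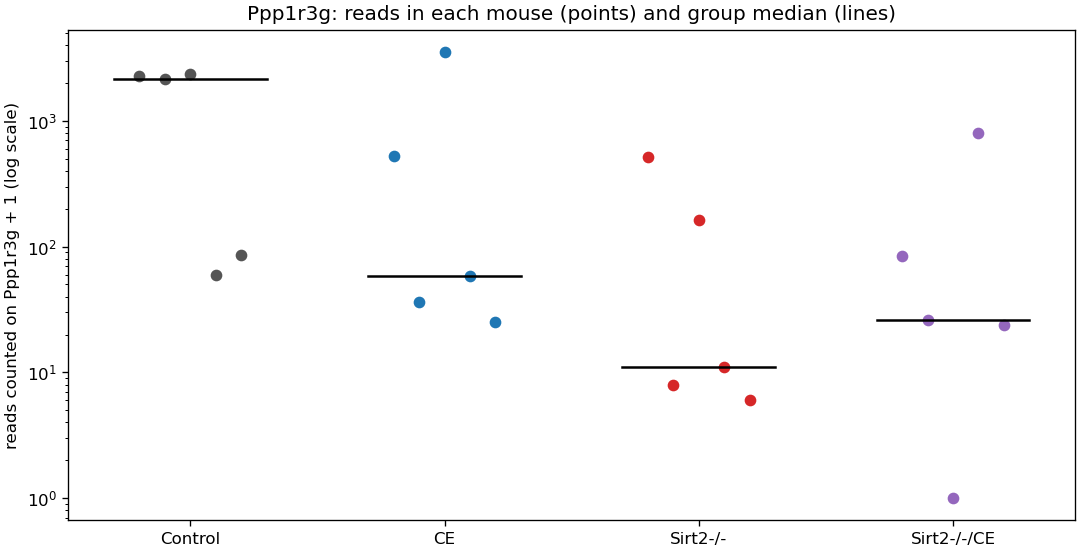
Reads counted on Ppp1r3g plus 1 (y axis, log scale) in each mouse by group (x axis), with the group median as a line. Counts span from 0 in Sirt2-/-/CE replicate 18 to 3518 in CE replicate 8, and each group holds mice far apart.

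The other members varied less within groups. The SD of log2 CPM was 0.24 for Ugp2, 0.25 for Phka2 and 0.28 for Gbe1, which exceeded 15.8%, 17.2% and 24.2% of the tested genes. It was 0.66 for Gys2, 0.65 for Ppp1r3c and 0.87 for Ppp1r3b, above 71.9%, 71.7% and 83.1% of the tested genes.

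The genes most alike to each member over the 20 mice were sought among the 10591 genes whose mean reached 1 FPKM, by Pearson's r of log2 CPM (counts scaled by TMM). For Gys2 they were Pcsk4 (r = 0.95) and Serpina6 (r = 0.94), for Phka2 Rbms1 (r = 0.87) and Acsm5 (r = 0.86), and for Ppp1r3g Cebpb (r = 0.87) and Tnfrsf1b (r = 0.86). Pygl was closest to D630039A03Rik (r = 0.81) and Slc17a4 (r = 0.79), Gbe1 to Akr1d1 (r = 0.80) and Ak4 (r = 0.79), and Ugp2 to Palmd (r = 0.77) and Eepd1 (r = 0.76). Gyg was closest to Mnat1 (r = 0.79) and Gstm4 (r = 0.77), and Ppp1r3c to Plcb3 (r = 0.79) and Pirb (r = 0.73). Ppp1r3b was closest to a gene without a symbol (r = 0.78) and to Gm14327 (r = 0.76). All these values share the libraries, their scaling and the clock differences between mice, and they are given as a description.

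Other genes of the pathway gave no calls either. Of 23 further glycogen genes, 21 were tested, and 0 were called in each of the 7 comparisons, and their median log2 fold change against Control was -0.04 (CE) and -0.08 (Sirt2-/-). Among those of lowest p was Ppp1r3f, a further targeting subunit of protein phosphatase 1, which had at most 0.189 FPKM (log2 fold change 1.84 in Sirt2-/- against Control, edgeR adjusted p = 0.271). Among 9 genes that bring glucose into hepatocytes or phosphorylate and release it, 0 were called. Slc2a2, the liver glucose transporter, had 83.3 to 152 FPKM in Control and 48.3 to 70.5 in CE mice without overlap (log2 fold change -0.97, unadjusted p = 0.0007, edgeR adjusted p = 0.171), and Gckr, the regulator of glucokinase, had a log2 fold change of -0.45 in Sirt2-/- against Control (edgeR adjusted p = 0.0882). Among 16 genes of insulin, glucagon and adrenergic signalling, 0 were called. Adra1b, an adrenergic receptor, had a log2 fold change of -0.51 in Sirt2-/- (edgeR adjusted p = 0.0637), and Irs2, an insulin receptor substrate, one of -1.49 for cold averaged over genotypes (edgeR adjusted p = 0.391).

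Of the markers of endothelial, Kupffer, stellate and bile duct cells, 0 were called in any comparison. Against Control, all 4 endothelial and all 4 stellate cell markers had lower fitted values in CE, with 0 at an unadjusted p under 0.05. In Sirt2-/- mice 4 and 1 of them were higher, again with 0 at that p. The neutrophil marker tested, S100a9, was lower at that p in CE (log2 fold change -1.54) and Sirt2-/- (-1.75). Of 6 hepatocyte markers, 1 was lower at that p in Sirt2-/- (Apoa1, -0.66) and 0 in CE. At an unadjusted p under 0.05, all 4 endothelial markers and all 3 Kupffer cell markers in the table had higher values in Sirt2-/-/CE than in CE mice, and likewise for the genotype averaged over both treatments, beside 6.09% and 13.8% of all tested genes in either direction. In Sirt2-/-/CE against CE, 1 of 4 stellate cell markers was higher and 1 of 4 bile duct markers lower at that p, and for the genotype average 0 of 4 and 0 of 4. The endothelial sum was 8.64 to 42.7 FPKM in CE and 47.8 to 73.6 in Sirt2-/-/CE mice, 12.8 to 64.3 in Control and 27.0 to 67.7 in Sirt2-/- mice. The Kupffer cell sum was 28.7 to 131 FPKM in CE and 99.99 to 138 in Sirt2-/-/CE mice, which overlapped, and 31.7 to 111 in Control and 79.6 to 138 in Sirt2-/- mice. Their part in the values of the members was not tested.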

How the data were processed

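Messenger RNA of 20 mouse livers was sequenced by the authors, 5 mice per group. The authors deposited 1 table with whole-number read counts per gene, not normalized, and beside them FPKM values scaled by the authors to gene length and depth. The submitters' processing notes name the mm10 build; the aligner, the counting tool and the handling of strand are not given in the sources used here. Groups were taken from the labels, 0 value columns were left unused, and 9 lines without a gene were left out. Intervals for a count of 0 cover counting error only.

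Counts were tested with edgeR 4.0.16 in R 4.3.3 (TMM scaling, the filterByExpr filter with its minimum count at 10 and its minimum total at 15, and a two-sided quasi-likelihood F test fitted to all 20 libraries), with p-values adjusted by Benjamini-Hochberg over 15616 genes and a threshold of 0.05. Standard errors were derived from the F statistic. The comparisons were the 4 pairs that differ in 1 factor, their interaction and both averages. The fit was tested on simulated data. Alternatives were DESeq2 1.42.0, limma 3.58.1 (voom with sample quality weights, and trend on log2(FPKM + 1)), upper-quartile and library-size scaling, 2 other filters, a fit of only the groups compared, the clock score as a covariate and each mouse left out in turn. Depth was 35499796 to 53917339 counts per mouse.

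The members and lists were chosen with earlier results of these data known. Named genes were all members, the 2 genes of lowest p in each pathway list where none was called, and the 2 genes most alike to each member. The result of 1 further gene is not reported here. Positions are from GENCODE vM21, and promoters from RefSeq. BLAST+ 2.17.0 found no gene of near-identical sequence (at least 95% over 150 bases) for any member. No library pair was alike within sampling noise (lowest median chi-square 4.42, noise alone 0.455). Figures were drawn with matplotlib 3.10.9.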

Additional observations from a re-analysis of the deposited data

Results flagged for a closer look

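In each member, the highest or lowest mouse of a group of 5 was compared with the others by Dixon's criterion (a gap above 0.71 of the range), and 2 of 36 groups held a mouse that stood apart; chance alone gives about 1 in 20 groups. Both were Ppp1r3g. CE replicate 8 had 35.4 FPKM, whereas the other CE mice had at most 5.13. Sirt2-/-/CE replicate 19 had 8.09 FPKM, whereas the other mice of that group had at most 0.753. Without CE replicate 8, the log2 fold change of Ppp1r3g between Sirt2-/-/CE and CE was 0.19 in place of -2.36.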

How the results depend on the processing

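Over the alternatives, 202 of 207 counts of called members were 0. The exceptions were CE against Control with DESeq2 (1, Phka2) and limma voom with sample quality weights (2, Phka2 and Ugp2), and Sirt2-/- against Control with the same tools (1 and 2, the same genes) and in the fits that leave out a mouse (0 to 1, the 1 without Sirt2-/- replicate 13). In these comparisons DESeq2 called 169 and 607 of all genes, voom 540 and 906, and the fit without replicate 13 called 375 in the latter, where edgeR on all mice called 1 and 139. The 139 fell to 5 without Control replicate 2, to 5 without Sirt2-/- replicate 14 and to 0 with the clock score in the fit. Of 29 fold changes, 20 kept their direction in every alternative that gave a value. Leaving out single mice gave ranges that cross 0 for Pygl in CE (-0.15 to 0.056), Gyg in CE (-0.28 to 0.050) and Sirt2-/- (-0.054 to 0.11), Ppp1r3b in Sirt2-/- (-0.026 to 0.33), and Ppp1r3g in CE (-2.89 to 0.087) and in Sirt2-/-/CE against CE (-4.87 to 0.19). With the clock score, Ppp1r3g was 0.15 in CE and 0.093 in Sirt2-/-/CE against CE, and Gyg was -0.12 in Sirt2-/-, or -0.077 without the 4 mice of lowest clock score, a setting chosen after the data were seen. Limma voom gave -0.026 for Gyg in Sirt2-/-, -0.15 and -0.021 for Gys2 in Sirt2-/-/CE against Sirt2-/- and against CE, and -0.040 for Ppp1r3b with cold averaged over genotypes. The cause was not tested. Over all alternatives the adjusted p of Phka2 ran from 0.0117 to 0.395 in CE and from 0.0136 to 0.508 in Sirt2-/-. Scaling by library size alone moved the median of all genes in Sirt2-/- against Control to 0.16. With at least 10 counts in every library Ppp1r3g could not be tested. No paired analysis was possible because the replicate numbers run from 1 to 20 and no number occurs in more than 1 group.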

Other observations

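Over the 20 mice, after group means were removed from log2 CPM (counts scaled by TMM), Gys2 and Pygl had a Pearson r of -0.53, Pygl and Ugp2 one of 0.68, Pygl and Ppp1r3g one of -0.59, and Gyg and Ppp1r3b one of -0.61. These values share the libraries and are given as a description of 36 pairs, with no test.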
